A study of Homo sapiens with 12 samples.

Results

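The glucose-sensing factor MondoA, encoded by MLXIP, was followed together with its binding partner MLX, 3 genes known as MondoA targets (TXNIP, ARRDC3 and KLF10) and 2 genes of glucose entry and use (PFKFB3 and SLC2A3). The genes were chosen by symbol for their place in the MondoA circuit, with earlier results of these data known, and 7 of 7 were among the 6777 genes tested. MDA-MB-231, an established human line derived from triple-negative breast cancer, was treated for 4 h with 10 nM AZD0095, an inhibitor of the lactate exporter MCT4, or with the solvent DMSO. RNA-seq gave RNA levels and ribosome profiling gave footprint levels, the mRNA fragments that ribosomes protect from RNase I. Each assay had 3 DMSO and 3 AZD0095 libraries, 12 libraries in all, and all cells were grown in DMEM with serum. The cells for footprints were also treated briefly with cycloheximide before lysis. Whether replicates came from separate cultures is not stated, and p-values therefore speak only of the scatter among these libraries, part or all of which may be technical.

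MondoA waits on the outer surface of mitochondria and moves with MLX to the nucleus when glucose 6-phosphate accumulates. There the pair binds carbohydrate response elements, repeated E-box-like half-sites in the promoters of its targets. TXNIP and ARRDC3 are alpha-arrestins, adaptor proteins that help remove transporters and receptors from the cell surface, and TXNIP protein restrains glucose uptake, which closes a feedback loop. In triple-negative breast cancer cells MYC, which shares the extended MAX and MLX dimer network, is known to oppose MondoA at the TXNIP promoter. PFKFB3 makes fructose 2,6-bisphosphate, the strongest allosteric activator of phosphofructokinase, and SLC2A3 encodes GLUT3, a glucose transporter of high affinity.

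Levels are given in FPKM, fragments scaled to gene length and to the mapped total. The listed genes were above 1 FPKM in all 12 libraries, so genes below that level in any library could not be examined. Libraries of a group correlated across genes at 0.989 to 0.997 for RNA and at 0.854 to 0.920 for footprints, and the median gene's SD on the log2 scale was 0.09 and 0.10 for RNA but 0.53 and 0.44 for footprints. On the second component of the RNA values, with 28.5% of the variance, the 2 libraries numbered replicate 1 lay at 3.18 and 12.2 and the other 4 between -7.90 and -0.02. In footprints DMSO replicate 2 stood apart on the first component and DMSO replicate 1 on the second. Depth could be recovered only for footprints and only relative to DMSO replicate 1. The other DMSO libraries were at 0.865 and 1.55 times its depth and the AZD0095 libraries at 1.14, 1.75 and 4.05 times. On average AZD0095 libraries were 2.03 times as deep as DMSO libraries, or 1.27 times once AZD0095 replicate 3, the deepest, was left out. All 6 of 6 marker genes chosen for MDA-MB-231 were listed, among them VIM at 2522 FPKM and CD44 at 787 FPKM in DMSO. Of the luminal markers 2 of 6 were listed, ERBB2 at 16.8 FPKM and EPCAM at 10.1 FPKM, while 0 of 4 fibroblast and 0 of 3 leukocyte markers were. MSN was the 1 marker of the line that rose in RNA, by 0.19 (limma adjusted p = 0.042), a call that held in 1 of 6 fits with a library left out (the one without AZD0095 replicate 1; adjusted p up to 0.161 in the others) and was lost under median centring (0.059) and without a variance trend (0.101). In bulk libraries a lower share of cells with a transcript and less of it per cell cannot be told apart.

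RNA of the 3 MondoA targets and of both glucose genes rose with AZD0095, whereas MLXIP and MLX RNA did not pass the test. SLC2A3 moved most, from 5.92 ± 0.561 to 11.1 ± 0.826 FPKM (SD, n = 3), followed by ARRDC3, PFKFB3, KLF10 and TXNIP. By limma on log2(FPKM + 1), adjusted by Benjamini-Hochberg over all 6777 genes with a threshold of 0.05, 5 of 7 genes were called higher and 0 lower. Of all genes 5.03% were called higher and 3.01% lower (1637 genes had an unadjusted p under 0.05). In 6 of 7 genes all AZD0095 libraries lay above all DMSO libraries, against 17.7% of all genes, and in 0 of 7 all lay below, against 11.5%. All changes are on the log2(FPKM + 1) scale, which understates those of low genes; the median change of all genes was 0.01.

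Of the regulators, MLXIP (ENSG00000175727, hg38 chr12:122078756-122147344) had an RNA level of 8.91, 9.46 and 10.7 FPKM in DMSO replicates 1, 2 and 3 and of 9.29, 11.0 and 11.2 FPKM in the AZD0095 replicates. The groups overlapped, since AZD0095 replicate 1 lay below 2 of the DMSO libraries. The RNA change of MLXIP was 0.10 (SE 0.10, limma adjusted p = 0.57). MLX (ENSG00000108788, chr17:42567100-42573203), its dimer partner, was more abundant per length, with 40.3, 40.2 and 39.8 FPKM in DMSO and 45.2, 42.3 and 42.8 FPKM with AZD0095. All AZD0095 libraries were above all DMSO libraries for MLX, with replicate 1 the highest. The difference of 0.11 (SE 0.06) had a limma adjusted p of 0.26 and was not called.

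TXNIP (ENSG00000265972, chr1:145992435-145996579), the classical MondoA target, was the most abundant of the 7 RNAs per length, at the percentile 88.5 of all genes in DMSO. Its RNA level was 101.3, 101.6 and 103.9 FPKM in DMSO and 118.2, 122.9 and 122.5 FPKM with AZD0095. The groups were tight and did not overlap. The TXNIP RNA level rose 1.18-fold, from 102 ± 1.41 to 121 ± 2.59 FPKM (SD, n = 3), a log2 change of 0.24 (SE 0.05, limma adjusted p = 0.018).

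ARRDC3 (ENSG00000113369, chr5:91368631-91383317), a paralog that binds ubiquitin ligases and the beta2-adrenergic receptor, was far less abundant. Its RNA level was 7.22, 5.78 and 6.17 FPKM in DMSO and 10.8, 10.8 and 9.18 FPKM with AZD0095. The lowest AZD0095 library, replicate 3, still lay above the highest DMSO library, replicate 1. ARRDC3 RNA rose 1.61-fold, from 6.39 ± 0.746 to 10.3 ± 0.948 FPKM (SD, n = 3), a log2 change of 0.61 (SE 0.10, limma adjusted p = 0.013). That change was the 55th largest increase among all genes tested, against rank 645 for TXNIP.

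Because MondoA and MLX bind paired E-box-like sites, promoter windows of the genes were searched for the E-box CACGTG, the half-site CACGNG, and that half-site repeated on the same strand with 5 bases between the copies. RefSeq windows (GRCh38.p14) run from 250 bases before to 50 bases after each start site, and both strands were read. Windows were given for 5 of the 7 genes, 8 windows in all, and not for KLF10 and SLC2A3. Among all 35116 windows the E-box was in 7.26%, the half-site, which includes the E-box, in 30.5%, and the spaced pair in 20 windows or 0.057%. The first TXNIP start site is 1 of those 20, and the pair lies at bases -88 to -72 from it. MLX holds an E-box at -50 to -45, the second PFKFB3 start site one at -108 to -103, and the second ARRDC3 start site a single half-site at -193 to -188. The windows of MLXIP, of the second TXNIP start site and of the first ARRDC3 and PFKFB3 start sites hold none of these letters. The stretches are shown 5′ to 3′ on the gene's strand to let the spacing be seen, with the matched motif in capitals (for TXNIP the pair with its spacer; 2 further TXNIP half-sites, at -163 to -158 and at -55 to -50, are left in lower case). TXNIP spans chr1:145996580-145996829 (minus strand), PFKFB3 chr10:6202797-6202856 (plus), MLX chr17:42567023-42567082 (plus) and ARRDC3 chr5:91380258-91380317 (minus).
TXNIP: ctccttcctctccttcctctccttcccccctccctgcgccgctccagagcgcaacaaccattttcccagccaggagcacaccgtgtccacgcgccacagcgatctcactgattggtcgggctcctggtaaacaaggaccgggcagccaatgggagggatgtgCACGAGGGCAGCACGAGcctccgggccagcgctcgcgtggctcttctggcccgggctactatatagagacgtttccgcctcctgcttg
PFKFB3: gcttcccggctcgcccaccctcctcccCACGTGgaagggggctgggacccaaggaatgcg
MLX: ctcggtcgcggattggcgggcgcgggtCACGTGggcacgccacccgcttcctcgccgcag
ARRDC3: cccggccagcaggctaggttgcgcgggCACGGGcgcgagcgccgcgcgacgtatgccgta
These matches describe letters only, since binding was not measured.

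PFKFB3 (ENSG00000170525, chr10:6144921-6326637) connects glucose entry with the pace of glycolysis. Its RNA level was 16.3, 16.2 and 17.8 FPKM in DMSO and 22.3, 22.3 and 22.1 FPKM with AZD0095. The AZD0095 libraries were nearly identical and all above DMSO. PFKFB3 RNA rose 1.32-fold, from 16.8 ± 0.904 to 22.2 ± 0.104 FPKM (SD, n = 3), a log2 change of 0.39 (SE 0.07, limma adjusted p = 0.014).

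KLF10 (ENSG00000155090, chromosome 8, 102648784 to 102655725) is a zinc-finger repressor induced by TGF-beta and by glucose. The RNA level of KLF10 was 20.7, 19.3 and 19.4 FPKM in DMSO and 24.5, 26.6 and 25.4 FPKM with AZD0095. The groups did not overlap. KLF10 rose 1.29-fold, from 19.8 ± 0.753 to 25.5 ± 1.05 FPKM (SD, n = 3), a log2 change of 0.35 (SE 0.07, limma adjusted p = 0.020).

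SLC2A3 (ENSG00000059804, chr12:7919230-7936187) was the lowest of the 7 RNAs per length in DMSO, though its range overlapped that of ARRDC3. The SLC2A3 level was 5.30, 6.04 and 6.41 FPKM in DMSO and 10.5, 12.1 and 10.9 FPKM with AZD0095. Every AZD0095 library was well above the DMSO libraries. With AZD0095 the SLC2A3 mean lay above those of ARRDC3 and MLXIP. Its range of 10.5 to 12.1 FPKM overlapped theirs, 9.18 to 10.8 FPKM for ARRDC3 and 9.29 to 11.2 FPKM for MLXIP. The SLC2A3 level rose 1.88-fold, a log2 change of 0.81 (SE 0.09, limma adjusted p = 0.0030), the 21st largest increase among all genes. SLC2A3 shares near-identical sequence with SLC2A14, and how shared reads were assigned is not given, so its absolute level is uncertain.

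GLUT1, the main basal glucose transporter and product of SLC2A1, remained the dominant glucose transporter RNA. Of 13 glucose transporter genes looked for, 3 were listed: SLC2A1 (261 ± 30.3 FPKM in DMSO, 258 ± 9.30 FPKM with AZD0095; SD, n = 3), SLC2A3, and SLC2A6, which encodes a lysosomal family member (9.52 and 8.71 FPKM). SLC2A3 made up 2.20%, 2.10% and 2.13% of their summed RNA FPKM in DMSO and 3.88%, 4.37% and 3.77% with AZD0095. The groups did not overlap, and the exact two-sided permutation p was 0.1, the smallest that 3 against 3 libraries allow. The SLC2A1 level was 44.0 ± 1.21 times that of SLC2A3 in DMSO and 23.3 ± 1.77 times with AZD0095 (SD, n = 3; exact permutation p = 0.1). The summed RNA level of the 3 transporters was 276 ± 30.9 and 278 ± 9.65 FPKM (SD, n = 3; exact permutation p = 0.9).

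**Figure D1:**
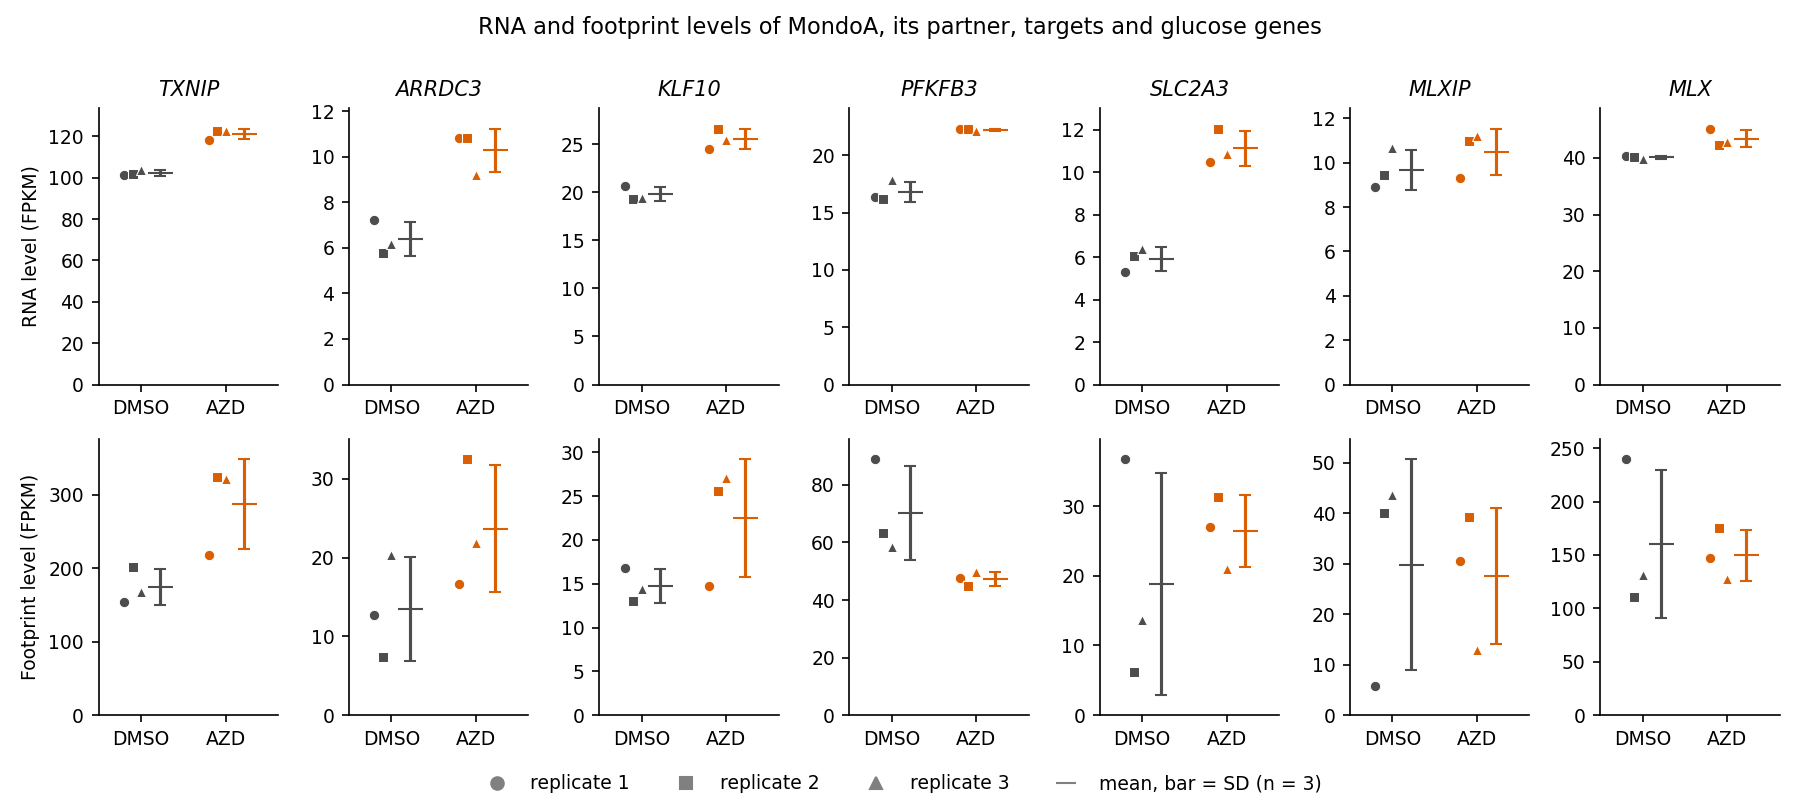
RNA level (upper panels) and footprint level (lower panels) of the 7 genes in FPKM on linear axes from 0, by treatment (AZD, AZD0095); markers are single libraries by replicate number, and bars are the mean and SD of 3 libraries. RNA points lie close together, with TXNIP at 101.3 to 103.9 FPKM in DMSO and 118.2 to 122.9 FPKM with AZD0095, while footprint points scatter more widely, as for MLXIP at 5.79 to 43.6 FPKM in DMSO.

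The RNA calls differed in how often they held with 1 library left out. SLC2A3 stayed called in 6 of 6 fits that each left out 1 RNA library (log2 change 0.75 to 0.86, limma adjusted p at most 0.027). ARRDC3 was called in 3 of 6 (0.55 to 0.69) and missed the threshold without DMSO replicate 2 (adjusted p = 0.071), DMSO replicate 3 (0.051) or AZD0095 replicate 2 (0.072). PFKFB3 was also called in 3 of 6 (0.36 to 0.43), missing without DMSO replicate 2 (0.088), AZD0095 replicate 2 (0.075) or AZD0095 replicate 3 (0.053). KLF10 was called in 2 of 6 (0.32 to 0.38) and missed without DMSO replicate 2 (0.105), DMSO replicate 3 (0.069), AZD0095 replicate 2 (0.099) or AZD0095 replicate 3 (0.068). TXNIP was called in 1 of 6 (0.23 to 0.26), the fit without AZD0095 replicate 1, with adjusted p of 0.051, 0.103 and 0.053 without DMSO replicates 1, 2 and 3 and of 0.091 and 0.073 without AZD0095 replicates 2 and 3. Sizes hardly moved in these fits. With both replicate 1 libraries left out together, an alternative added after seeing the data, all 5 genes were called.

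**Figure D2:**
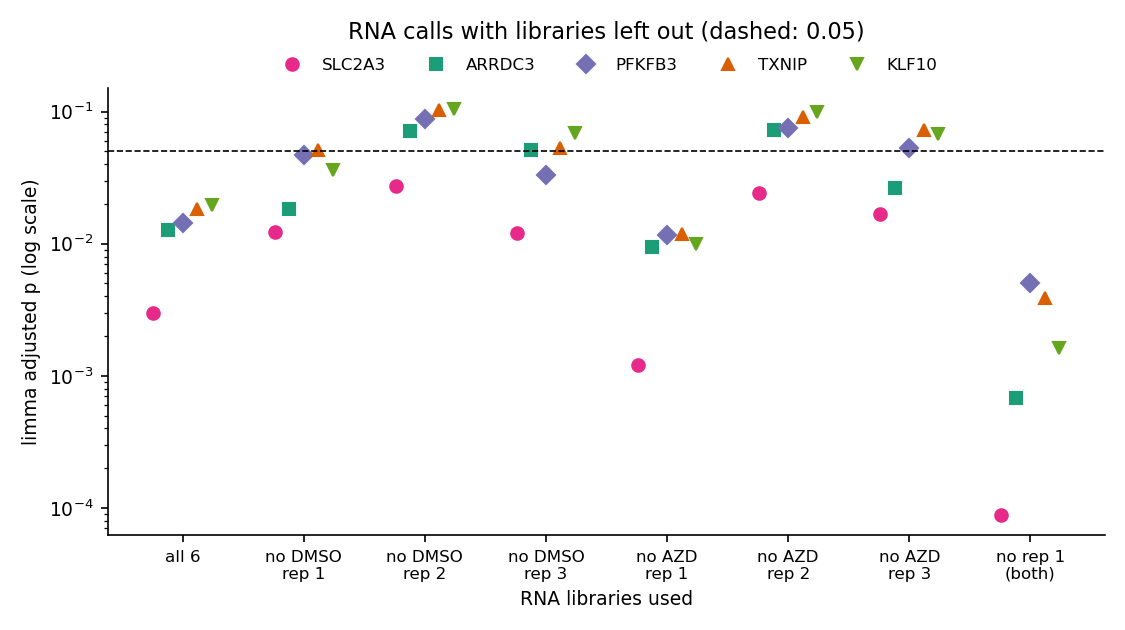
Limma adjusted p (log axis) of the RNA change of the 5 called genes with all 6 RNA libraries, with each library left out in turn, and with both replicate 1 libraries left out; the dashed line is 0.05. SLC2A3 lies below the line in every fit, and without DMSO replicate 2 it is the 1 gene of the 5 that does (adjusted p = 0.027).

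Footprints gave no call for any of these genes, and the point estimates of the alpha-arrestins and PFKFB3 had opposite signs. By limma 0% of all genes were called higher and 0% lower in footprints, although 530 genes had an unadjusted p under 0.05, so 0 of 7 calls matches the whole table. TXNIP was the 1 gene of the 7 whose AZD0095 libraries all lay above all DMSO libraries (7.19% of all genes did), and PFKFB3 the 1 gene whose libraries all lay below (5.77% of all genes).

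The TXNIP footprint level was 154, 201 and 168 FPKM in DMSO and 218, 325 and 321 FPKM with AZD0095. AZD0095 replicate 1 lay close to DMSO replicate 2, and the other 2 AZD0095 libraries were far higher. The footprint means of TXNIP were 175 ± 24.3 and 288 ± 60.8 FPKM (SD, n = 3), a ratio of 1.65 and a log2 change of 0.70 (95% confidence interval 0.08 to 1.32) with a limma adjusted p of 0.63. ARRDC3 had 12.7, 7.33 and 20.4 FPKM of footprints in DMSO and 16.7, 32.5 and 21.9 FPKM with AZD0095. Its groups overlapped, and the change of 0.83 had an interval of -0.44 to 2.09 (limma adjusted p = 0.77).

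These 2 genes are the members with footprint values that were whole multiples of 1 read (tolerance 0.02 of a read), as were those of 1217 genes, 18.0% of the table, searched up to 50 reads in DMSO replicate 1. The smallest solution was taken, so reads that share a factor would be understated. TXNIP rested on an implied 23, 26 and 39 reads in DMSO and 37, 85 and 194 reads with AZD0095. The 95% exact Poisson interval, which covers counting error only, was 14.6 to 34.5 reads for DMSO replicate 1 and 168 to 223 reads for AZD0095 replicate 3. ARRDC3 rested on 2, 1 and 5 reads in DMSO and 3, 9 and 14 with AZD0095, so the DMSO value of 7.33 FPKM stood for 1 read (interval 0.025 to 5.57 reads). Summed over libraries and divided by relative depth, reads were 1.77 times as many with AZD0095 for TXNIP (88 against 316 reads) and 1.60 times for ARRDC3 (8 against 26 reads). In the shallowest library, DMSO replicate 2, 1 read of TXNIP was worth 7.75 FPKM, and in the deepest, AZD0095 replicate 3, it was worth 1.66 FPKM; the part of depth in the footprint results was not tested. The other 5 genes gave no whole-read solution, and their depth is unknown.

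KLF10 footprints were at 16.8, 13.0 and 14.5 FPKM in DMSO and 14.8, 25.6 and 27.1 FPKM with AZD0095. AZD0095 replicate 1 fell among the DMSO libraries, and the change of 0.54 had an interval of -0.63 to 1.71 (limma adjusted p = 0.85). PFKFB3 footprints were at 88.9, 63.4 and 58.3 FPKM in DMSO and 47.5, 44.7 and 49.7 FPKM with AZD0095. The highest DMSO value, in replicate 1, widened the spread, and the footprint change of PFKFB3 was -0.54 (interval -1.44 to 0.37, limma adjusted p = 0.79).

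SLC2A3 footprints were at 36.7, 6.14 and 13.7 FPKM in DMSO and 27.1, 31.3 and 21.0 FPKM with AZD0095. DMSO replicate 1 exceeded every AZD0095 library and the other DMSO libraries lay below, so the groups overlapped, with a change of 0.78 (interval -0.64 to 2.20, limma adjusted p = 0.81). That change was 1.40 without DMSO replicate 1 and 0.20 without DMSO replicate 2, uncalled in both cases. The share of SLC2A3 in the summed transporter footprints was 3.47 ± 2.73% and 4.87 ± 0.875% (SD, n = 3; exact permutation p = 0.5). MLX had 240, 111 and 131 FPKM of footprints in DMSO and 147, 175 and 127 FPKM with AZD0095, again with DMSO replicate 1 highest (change -0.03, interval -0.80 to 0.74, limma adjusted p = 0.99). MLXIP had 5.79, 40.0 and 43.6 FPKM in DMSO and 30.5, 39.3 and 12.9 FPKM with AZD0095. Its lowest library was DMSO replicate 1, and the change of 0.17 had an interval of -1.49 to 1.82 (limma adjusted p = 0.98), wide enough to hold large changes in either direction.

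Footprints relative to RNA, the measure of translational efficiency, were low for KLF10 in both treatments, and the estimate for PFKFB3 was lower with AZD0095. In DMSO the footprint-to-RNA ratio of KLF10 was 0.307 times that of the median gene, at the percentile 6.61 of all genes, and 0.359 times (percentile 7.72) with AZD0095. The KLF10 footprint level in DMSO was itself low, at the percentile 11.9 of all genes, and the reads behind it are unknown. The gene length used for FPKM in each assay, which enters every such ratio, is not given. TXNIP stood at 0.703 and 0.968 times the median gene, and ARRDC3 at 0.868 and 0.940 times. PFKFB3 stood at 1.72 times in DMSO (percentile 75.9) and 0.868 times (percentile 41.9) with AZD0095. The remaining ratios in DMSO were 1.65 for MLX, 1.31 for SLC2A3 and 1.27 for MLXIP, and 1.41, 0.969 and 1.07 with AZD0095. Taken within each replicate number in DMSO, the log2 ratio had an SD of 1.51 for MLXIP, 1.44 for SLC2A3 and 0.73 for ARRDC3 (n = 3). That SD was 0.62 for MLX, 0.40 for PFKFB3, 0.19 for KLF10 and 0.15 for TXNIP. Whether RNA and footprint libraries of the same number came from the same culture is not stated, so the pairing is by number only.

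None of these shifts in efficiency passed the test. In the limma interaction of assay and treatment 0% of genes were called higher and 0% lower, with 578 genes at an unadjusted p under 0.05, and 0 of the 7 genes were called. PFKFB3 had an interaction of -0.92 (SE 0.33, 95% interval -1.64 to -0.21, limma adjusted p = 0.47), at rank 386 from the lowest. Over the alternatives it ranged from -1.04 to -0.73 with adjusted p of 0.157 to 0.944. For TXNIP the interaction was 0.46 (interval -0.06 to 0.98, limma adjusted p = 0.61) and 0.36 to 0.65 over the alternatives. The interaction was 0.21 for ARRDC3 (-0.93 to 1.36), 0.19 for KLF10 (-0.70 to 1.07), 0.06 for MLXIP (-1.81 to 1.93), -0.03 for SLC2A3 (-1.48 to 1.41) and -0.14 for MLX (-0.90 to 0.62), with limma adjusted p of 0.93 to 0.99. What size of difference these libraries could detect was not tested.

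**Figure D3:**
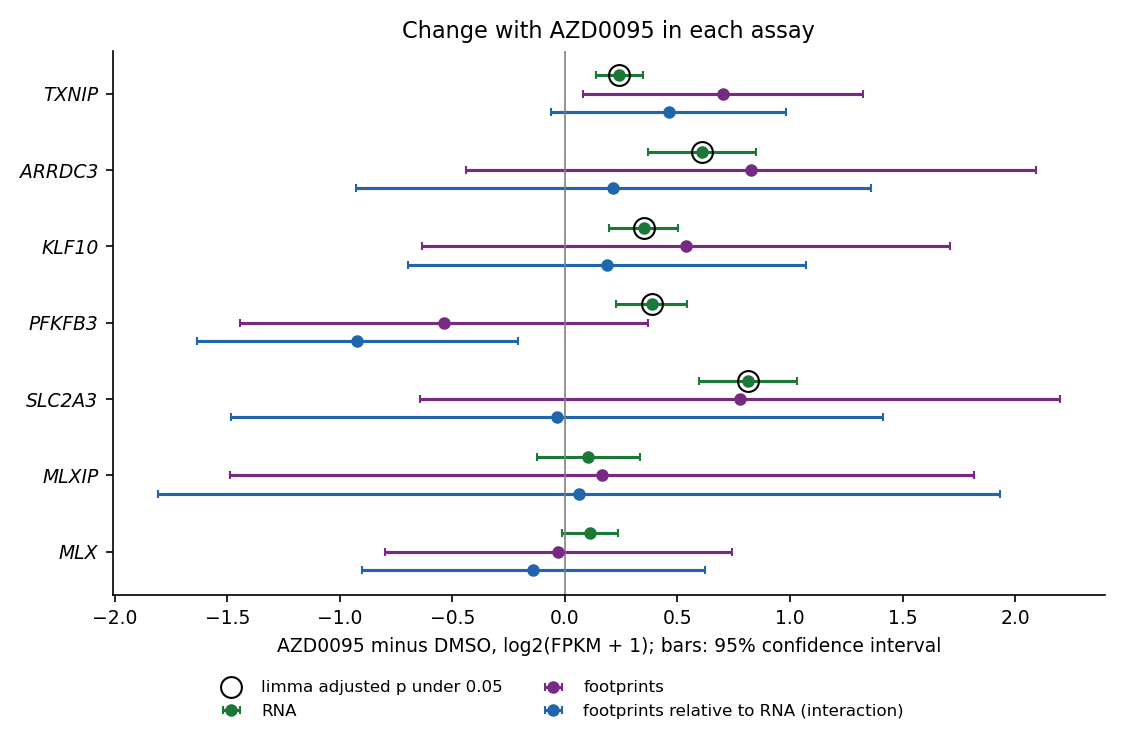
Change with AZD0095 on the log2(FPKM + 1) scale for RNA, footprints and footprints relative to RNA, for each gene; points are limma estimates, bars 95% confidence intervals, and rings mark an adjusted p under 0.05. Rings appear on 5 RNA estimates, and the footprint intervals are several times wider, as for ARRDC3 at -0.44 to 2.09.

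Around the MondoA circuit, the listed genes called in RNA all rose, and the others missed the threshold, which does not show that they were unchanged. Over all genes 5.03% were called higher and 3.01% lower, the shares beside which the counts of each list stand. Every list except that of AMPK includes members of the circuit, so its counts repeat results given above. Those members were chosen with earlier results of these data known. In the MLX and MAX network 7 of 11 genes were listed, 1 rose, 0 fell and 6 missed the threshold (median log2 change 0.11). The riser was MAX, the shared dimer partner of MYC and the MXD repressors, at 36.4 ± 1.50 and 45.1 ± 2.61 FPKM (SD, n = 3; change 0.30, limma adjusted p = 0.030). MYC itself, the factor known to oppose MondoA, was at 101 ± 3.40 and 103 ± 2.11 FPKM (SD, n = 3; change 0.03, limma adjusted p = 0.73) and was named here after its value was seen. MLXIPL, which encodes the related glucose sensor ChREBP, was not listed.

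Among alpha-arrestins and their partners 9 of 13 genes were listed, 3 rose, 0 fell and 6 did not pass (median 0.09). Besides TXNIP and ARRDC3 the riser was ARRDC1, an alpha-arrestin known for budding of small vesicles from the plasma membrane, at 9.96 ± 1.18 and 13.5 ± 0.761 FPKM (SD, n = 3; change 0.41, limma adjusted p = 0.041). ARRDC4, a close relative and known MondoA target, was not listed. For the first steps of glycolysis 9 of 16 genes were listed, 2 rose, 0 fell and 7 did not pass (median 0.11). HK1, the hexokinase that makes glucose 6-phosphate in most tissues, was at 63.3 ± 2.48 and 76.9 ± 5.49 FPKM (SD, n = 3; change 0.28, limma adjusted p = 0.041), and PFKFB3 was the other.

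AMPK, the energy sensor that marks TXNIP protein for degradation, was represented by 7 of 9 genes, of which 2 rose, 0 fell and 5 did not pass (median 0.07). PRKAA2, a catalytic subunit of low level, was at 1.99 ± 0.135 and 3.02 ± 0.330 FPKM (SD, n = 3; change 0.42, limma adjusted p = 0.033). CAMKK2, a calcium-dependent kinase upstream of AMPK, was at 10.1 ± 0.689 and 13.5 ± 1.37 FPKM (SD, n = 3; change 0.38, limma adjusted p = 0.045). In the KLF family 5 of 13 genes were listed, 2 rose, 0 fell and 3 did not pass (median 0.08). Estimates ran from -0.40 to 0.43, positive for 4 of the 5, and the lowest was not called. Beside KLF10 it was KLF4, a factor of epithelial differentiation and pluripotency, at 12.3 ± 0.440 and 16.9 ± 0.132 FPKM (SD, n = 3; change 0.43, limma adjusted p = 0.010). Of the 3 glucose transporters listed 1 rose, 0 fell and 2 did not pass (median -0.01).

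Each of these further calls was lost in some fits with 1 library left out, while the changes kept their sign and much of their size. In those fits the change was 0.27 to 0.35 for MAX, 0.33 to 0.49 for ARRDC1 and 0.23 to 0.33 for HK1. It was 0.36 to 0.47 for PRKAA2, 0.30 to 0.43 for CAMKK2 and 0.40 to 0.44 for KLF4. The table as a whole fell from 545 called genes to 100 without DMSO replicate 2 and to 116 without AZD0095 replicate 2. Without DMSO replicate 2 or without AZD0095 replicate 2 none of MAX, ARRDC1, HK1, PRKAA2, CAMKK2 and KLF4 was called, with limma adjusted p from 0.059 (KLF4) to 0.144 (ARRDC1) in the first case and from 0.058 (KLF4) to 0.150 (ARRDC1) in the second. With DMSO replicate 1 left out, MAX had a limma adjusted p of 0.083, ARRDC1 of 0.104, HK1 of 0.111, PRKAA2 of 0.092 and CAMKK2 of 0.127. Without DMSO replicate 3 it was 0.058 for MAX, 0.089 for HK1, 0.101 for PRKAA2 and 0.113 for CAMKK2, and without AZD0095 replicate 3 it was 0.131 for ARRDC1 and for HK1, 0.072 for PRKAA2 and 0.141 for CAMKK2. Without both replicate 1 libraries PRKAA2 had 0.059, while MAX, ARRDC1, HK1, CAMKK2 and KLF4 were called (limma adjusted p from 0.0030 to 0.018). With replicate number as a block, a pairing that was not settled, MAX, ARRDC1, HK1, PRKAA2, CAMKK2 and KLF4 were all called (0.0027 to 0.014). They were also all called with replicate 1 as a batch (0.00086 to 0.0087). Quantile normalization ended the calls of HK1 (0.072), CAMKK2 (0.066) and ARRDC1 (0.058), and median centring those of HK1 (0.060) and CAMKK2 (0.057). HK1 also missed without a variance trend (0.061).

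In footprints 0 genes of any of these lists were called. The median footprint change of the alpha-arrestin list was 0.70, with positive estimates for 9 of 9 genes, against a median of 0.04 over all genes. The medians were 0.05 for the MLX and MAX network, 0.47 for the transporters, -0.04 for the first steps of glycolysis, 0.34 for AMPK and 0.54 for the KLF family. Over all genes 53.1% of footprint estimates were positive. The alpha-arrestin median is the value of TXNIP itself and the KLF median that of KLF10, both given above. These medians describe few genes and were not tested.

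**Figure D4:**
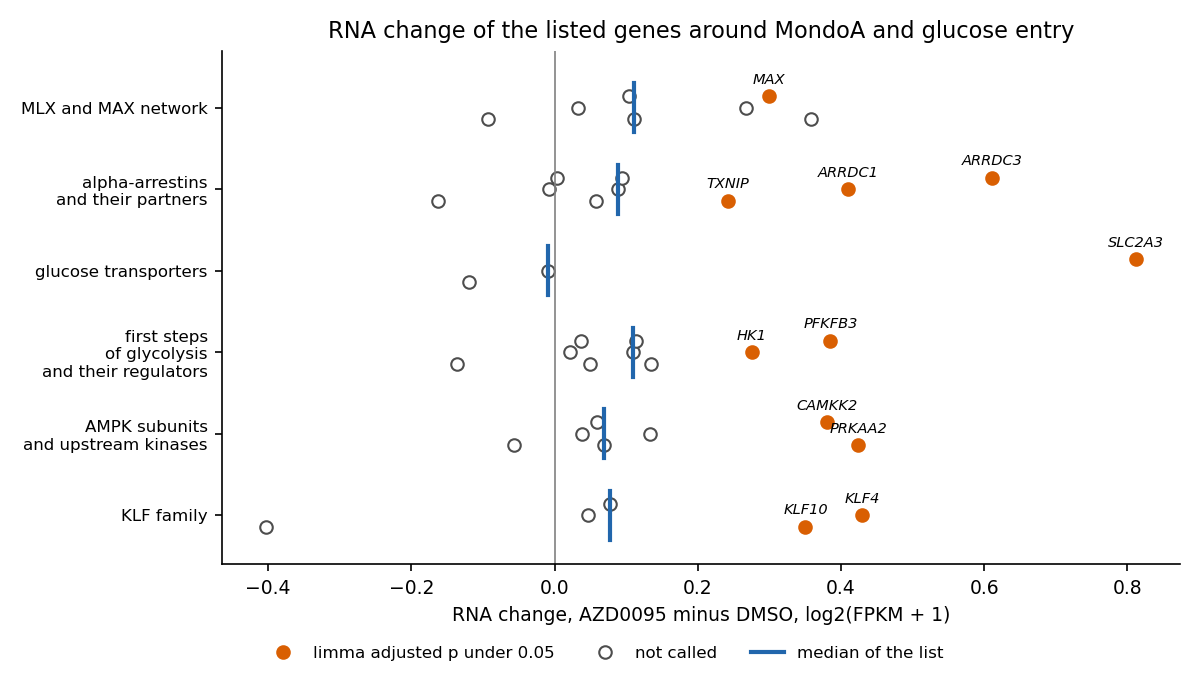
RNA change with AZD0095 on the log2(FPKM + 1) scale of the listed genes in 6 lists; each point is 1 gene, filled where the limma adjusted p was under 0.05, and the vertical bars are list medians. All filled points lie right of 0, and the list medians lie between -0.01 and 0.11.

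The genes whose RNA profile over the 6 libraries was closest to that of SLC2A3 were GTPBP2, GPT2 and TEAD3, with root mean square differences of 0.060, 0.074 and 0.075 in log2 units after each gene's DMSO mean was subtracted, and 7 genes lay within 0.1. For ARRDC3 the closest were HMOX1 (0.069), TUBE1 (0.087) and FNBP1L (0.089), with 6 genes within 0.1. TXNIP had 744 genes within 0.1, the closest being FLOT1 (0.021), MAGED2 (0.023) and PACS1 (0.024). These differences were not scaled to the size or scatter of a change. A smaller change such as that of TXNIP can therefore have more near matches, and the counts do not show how distinctive a profile is.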

How the data were processed

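The authors deposited FPKM values per gene for each library; fastp, STAR, Bowtie2 and hg38 are named per the submitters' processing notes, with roles, versions, read counter and FPKM formula not given in the sources used here. Titles name the RNA as total and the molecule as polyadenylated, which was not settled. Each table listed 6785 genes; 8 repeated entries were removed, and 11 IDs had no symbol. Values were transformed as log2(FPKM + 1); a filter at a mean of 1 FPKM removed none. RNA, footprints and the assay by treatment interaction were fitted with limma 3.58.1 in R 4.3.3 (trended variances, two-sided, Benjamini-Hochberg over 6777 genes); scripts were tested on simulated data. RNA depth is unknown. Gene positions and promoter windows came from RefSeq (GRCh38.p14). Every member was named, and from each list the genes called; likeness was sought for TXNIP, ARRDC3 and SLC2A3. Members and lists were chosen with earlier results of these data known. In the main fits samples were not paired by replicate number. Alternatives covered pseudocount, filter, scaling, variance prior, weights, batch, block and left-out libraries.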

Additional observations from a re-analysis of the deposited data

How the results depend on the processing

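The number of the 7 genes called in RNA was 5 in every alternative with all libraries, with the replicate block too, and 1 to 5 with 1 library left out. Genes called in RNA over the whole table numbered 545, with 1622 under the replicate block, 1660 with replicate 1 as a batch, 1395 without the replicate 1 libraries (added after seeing the data) and 100 to 1112 with 1 library left out. Same-numbered RNA libraries deviated together at correlations of 0.62, 0.09 and 0.49 (footprints 0.01, -0.02 and 0.09). Differently numbered RNA libraries did so at -0.57 to 0.30, and DMSO replicate 2 correlated better with AZD0095 replicate 3 (0.23) than with replicate 2. The main fits used no pairing, and whether same-numbered RNA libraries share a replicate effect was not settled. The interaction called 0 genes, 1 without a variance trend and 0 to 4 with 1 library left out; the footprint fits called 0 throughout. Some uncalled estimates changed sign, and the cause was not tested. With 1 library left out, footprint changes ranged from -0.25 to 0.30 for MLX and -0.72 to 0.64 for MLXIP, and interactions from -0.82 to 0.53 for MLXIP, -0.61 to 0.59 for SLC2A3, -0.13 to 0.55 for ARRDC3 and -0.36 to 0.19 for MLX. Without the replicate 1 libraries footprint changes were 0.31 for MLX and -0.86 for MLXIP, and interactions 0.22 for MLX, -0.99 for MLXIP and 0.59 for SLC2A3. The MLXIP interaction was -0.056 with quantile normalization and -0.17 with array weights, whose fit did not reach its tolerance. The log2 footprint-to-RNA ratio of MLXIP in DMSO was 0.34, and -0.017 when taken within each replicate number.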
